A study of Mus musculus with 4 samples.

Results

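The genes examined here encode the enzymes that hydroxylate and cross-link collagen chains, the 10 listed members being 5 lysyl oxidases (Lox, Loxl1, Loxl2, Loxl3 and Loxl4), 3 lysyl hydroxylases (Plod1, Plod2 and Plod3) and 2 catalytic subunits of prolyl 4-hydroxylase (P4ha1 and P4ha2). They were taken by name from the 21090 genes of the deposited table, and all 10 were present. All 10 were also among the 10871 genes with a mean of at least 1 RPKM (reads divided by gene length in kilobases and by library size) that entered the tests. RNA-seq was done on 4 mouse mammary tumor lines, 1 library each, described by the study as started from a primary mammary tumor of a mouse carrying mutant alleles of Pik3ca and Trp53 and Cre recombinase under the MMTV promoter. The control group (n = 2) was the parental line and the vector control line, and the knockout group (n = 2) was a line edited in exon 3 and a line edited in exon 2 of S100a4, made by lentiviral delivery of Cas9 and a guide RNA with puromycin selection. The cells carry the number 307 in the titles of 3 libraries and 308 in that of the line edited in exon 2, and whether 308 is another starting line is not given. Whether each line is 1 clone, and what the vector control expresses, is not given in the sources used here. The 2 lines of a group are the only replicates, so the spread within a group is the spread between lines.

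A collagen chain is modified in the endoplasmic reticulum before it folds. Prolyl 4-hydroxylase adds the hydroxyl groups that keep the triple helix stable at body temperature, and lysyl hydroxylases modify lysines that later carry sugars or cross-links. Outside the cell, lysyl oxidases are copper enzymes that oxidise lysine and hydroxylysine side chains, which then react with each other and tie fibrils together. In breast tumors these enzymes are known for stiffening the matrix around the tumor, and several of them are induced under low oxygen.

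Between 22472024 and 31235456 reads stood behind the RPKM of each library. S100a4, the edited gene and a check of the labels, had RPKM of 3576 (parental), 4741 (vector), 1136 (exon 3) and 1105 (exon 2), so that transcripts were lower in both knockouts and still present. RPKM does not show editing. The study reports truncating mutations in nearly all S100a4 transcripts of the knockout lines, and loss of the protein by Western blot. All 7 mesenchymal markers examined, vimentin (Vim) among them, were at or above 1 RPKM in every library, with sums of 3319 and 2635 in parental and vector cells and 1708 and 2125 after exon 3 and exon 2 editing. Of 4 epithelial markers only the keratins Krt8 and Krt18 were, while Epcam and Cdh1 were below 1 in every library. Basal and endothelial markers were all below 1. Of the 3 leukocyte markers, Ptprc and Itgam were at or near 0 and Cd68 was at 4.92 and 3.36 in the controls and at 11.5 and 13.2 in the knockouts. The mesenchymal sum was thus lower and Cd68 higher in both knockouts. Vim made up most of that sum, at 2418 (parental), 2060 (vector), 1362 (exon 3) and 1721 (exon 2) RPKM. Vim, Twist1, Zeb1 and Zeb2 were lower in both knockouts than in both controls. For Col1a1, Acta2 and Pdgfrb, both knockouts lay between the controls. The part of these markers in the enzyme differences between groups was not tested. The vector control stood apart from the other 3 libraries for many of the genes below. In bulk RNA, fewer cells of a type and less RNA per cell cannot be told apart.

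The 10 genes spanned a wide range of expression. RPKM scales with gene length, so levels of different genes can be set side by side. In the parental line Loxl3 was highest at 331 RPKM, followed by P4ha1 at 237 and Loxl1 at 191. Plod3 (91.5), Lox (83.5), Plod1 (74.3) and P4ha2 (55.6) formed the middle, and Plod2 (26.4), Loxl4 (13.9) and Loxl2 (5.35) were lowest. Mean RPKM over the 4 libraries was above that of 95.9% of tested genes for Loxl3 and of 15.4% for Loxl2. The vector control had a different order, with P4ha1 first at 101 RPKM and Loxl1 next to last at 9.69. Neighbours in the order overlapped over the 4 libraries, Loxl3 (62.6 to 331) with P4ha1 (101 to 237), Plod3 (67.6 to 128) with Plod1 (51.6 to 119), and Lox (17.8 to 83.5) with P4ha2 (21.5 to 73.4). Loxl2 did not overlap any other gene of the 10, its highest value of 6.36 lying under the lowest value of the others, 9.69.

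**Figure D1:**
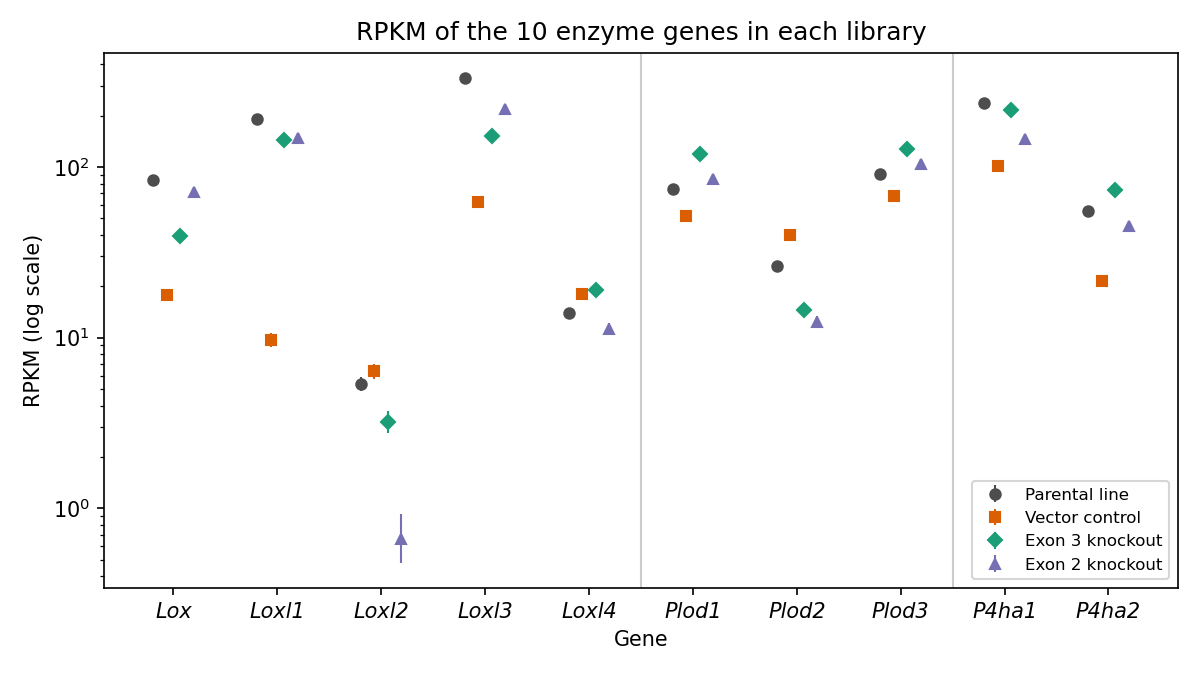
RPKM (log scale) of the 10 genes in each of the 4 libraries, with bars for the 95% Wilson interval of counting error, most of which are smaller than the symbols. The vector control is lowest for 7 genes, Loxl1 most of all at 9.69 RPKM, and the exon 2 knockout is lowest for Loxl2 at 0.662.

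Among the lysyl oxidases, Loxl2 was the member that was lower in both knockouts. Loxl2 (chromosome 14, 69609068 to 69695834 in GRCm38) encodes a lysyl oxidase with scavenger receptor domains that acts on basement membrane collagen and is linked to the epithelial-mesenchymal transition. Its RPKM came to 5.35 in parental and 6.36 in vector cells, with 3.21 and 0.662 after exon 3 and exon 2 editing. The controls lay close together and both knockouts lay below them, the exon 2 knockout furthest. These levels rest on 393, 380, 177 and 35 reads in that order. The 95% Wilson intervals were 2.77 to 3.71 RPKM in the exon 3 and 0.476 to 0.921 RPKM in the exon 2 knockout, and they cover counting error only. The log2(RPKM + 1) difference between knockout and control means was -1.37 (SE 0.451), with an adjusted p = 0.165 in limma, a linear model fitted over all tested genes. A fit that dropped the exon 2 knockout put it at -0.70. The study named Loxl2 as lower in the knockouts on the basis of these same libraries, so its direction here is not independent evidence. Separately, on tumor microarrays, the study listed Loxl2 as higher in metastatic sarcomatoid carcinomas than in adenocarcinomas. That comparison was of tumors, not of S100a4 editing.

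Lox, Loxl1 and Loxl3 shared another pattern, low in the vector control and at higher levels in the other 3 lines. Lox (chromosome 18, 52516067 to 52529867) is the founding member and cross-links fibrillar collagen and elastin. Its RPKM was 83.5 in parental cells and 17.8 with the vector, beside 39.2 after exon 3 editing and 71.2 after exon 2 editing. Both knockouts lay between the controls.

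Loxl1 (chromosome 9, 58287738 to 58313186) is known for elastic fibre upkeep. Its RPKM was 191 in parental and 9.69 in vector cells, a 19.7-fold difference resting on 10890 and 449 reads. The knockouts had 144 (exon 3) and 148 (exon 2), close to each other and below the parental line. The control mean was 100 ± 128 (SD, n = 2) and the knockout mean 146 ± 2.84 (SD, n = 2), so the controls differed from each other by more than the groups did.

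Loxl3 (chromosome 6, 83034173 to 83052562) acts in palate, spine and muscle attachment. Its RPKM came to 331 in parental and 62.6 in vector cells, with 151 and 218 after exon 3 and exon 2 editing. The knockouts again lay between the controls. Knockout minus control differences on the log2 scale were 0.43 (SE 0.569) for Lox, 1.69 (SE 0.922) for Loxl1 and 0.33 (SE 0.587) for Loxl3, and the adjusted p in limma was 0.698, 0.335 and 0.782. The GC and length correction described below put Lox at 0.24.

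Loxl4 (chromosome 19, 42593982 to 42612813) was the family member with the least difference between groups. Its RPKM was 13.9 in parental cells and 17.99 with the vector, beside 19.0 after exon 3 editing and 11.2 after exon 2 editing. The exon 3 knockout was the highest library and the exon 2 knockout the lowest. The difference between groups was -0.10 (SE 0.349), and it was 0.0484 under quantile normalization.

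Because RPKM is scaled within a library, the make-up of each family can be read without scaling for library size. The shares were computed without the GC and length correction, so effects of GC content that differ between libraries remain in them. Lysyl oxidase genes summed to 625 RPKM in parental and 115 in vector cells, and to 356 and 449 after exon 3 and exon 2 editing. Loxl3 supplied the largest share in every library, from 42.5% to 54.7%. Loxl1 supplied 30.6% in parental cells, 40.3% and 32.9% after exon 3 and exon 2 editing, and 8.47% in vector cells. In the vector control Loxl4 made up 15.7% and Loxl2 5.56% of the family, against at most 5.34% and 0.900% in any other library. Loxl4 and Loxl2 thus gained share in a library where their own RPKM was little different from the parental line.

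**Figure D2:**
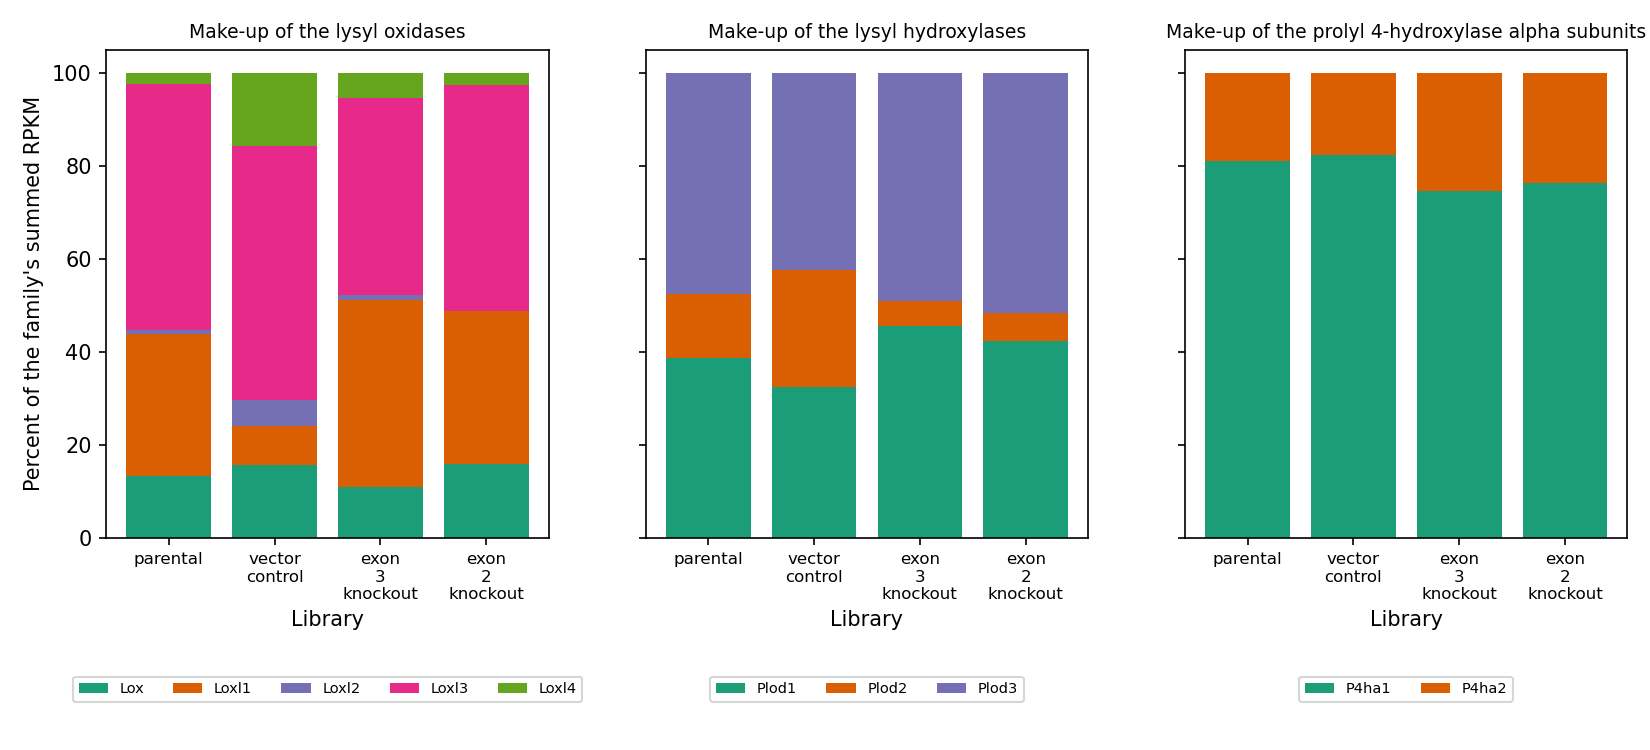
Percent of each family's summed RPKM supplied by each gene, 1 bar per library. Loxl1 takes 8.47% of the lysyl oxidases in the vector control and at least 30.6% elsewhere, and Plod2 takes 25.2% of the lysyl hydroxylases in the vector control against 5.53% and 6.09% in the knockouts.

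The lysyl hydroxylases divided into Plod2, lower in both knockouts, and Plod1 and Plod3, higher in both. Plod2 (chromosome 9, 92542223 to 92608428) is known for hydroxylating lysines in the telopeptides of collagen, the step that commits them to the more stable hydroxyallysine cross-links. Its RPKM came to 26.4 in parental and 40.2 in vector cells, with 14.5 and 12.3 after exon 3 and exon 2 editing. Both knockouts lay below both controls, and the knockouts were the closer pair. Controls averaged 33.3 ± 9.76 (SD, n = 2) and knockouts 13.4 ± 1.52 (SD, n = 2). The log2 difference was -1.23 (SE 0.329), the smallest adjusted p among the 10 genes (adjusted p = 0.127 in limma). The coding sequence of Plod2 is 44.2% G and C, the lowest of the 10, and across tested genes the group difference went with this content (Pearson's r 0.459 over 10780 genes, which are not independent replicates). After correction of each library for GC content and gene length the Plod2 difference was -0.51, with an adjusted p = 0.481 in limma.

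Plod1 (chromosome 4, 147909753 to 147936767), which modifies lysines in the helical part of collagen, had RPKM of 74.3 in parental and 51.6 in vector cells, with 119 and 85.5 after exon 3 and exon 2 editing. Plod3 (chromosome 5, 136987019 to 136996648), which also attaches sugars to hydroxylysine, had RPKM of 91.5, 67.6, 128 and 104 in the same order. For both genes each knockout was above each control, with the vector control lowest and the exon 3 knockout highest. Differences between the groups were 0.70 (SE 0.324) for Plod1 and 0.55 (SE 0.307) for Plod3, with adjusted p = 0.269 and adjusted p = 0.349 in limma. With the vector control dropped they were 0.44 and 0.33. The coding part of Plod3 overlaps exons of Znhit1 on the other strand, that of Plod2 those of Gm38391, that of Loxl2 those of Gm27177 and that of Lox those of AC161119.1, all antisense. Whether counting used strand is not stated, so reads of such a pair cannot be told apart. Within the family, Plod2 held 13.7% in parental and 25.2% in vector cells, and 5.53% and 6.09% after exon 3 and exon 2 editing. The share of Plod1 was 38.7%, 32.3%, 45.5% and 42.3% in that order. Neither share was corrected for GC content and length.

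Promoter sequences from RefSeq (GRCm38.p6) matched 5 of the 10 genes, each covering 250 bases before to 50 after the start. Those of Plod1 and Plod3 are shown because the genes were higher in the knockouts together. They lie at chr4:147936727-147937026 on the minus strand for Plod1 and at chr5:136986769-136987068 on the plus strand for Plod3, and each is written 5′ to 3′ in the direction of the gene. Capitals mark ACGTG, a form of the core of the element bound by hypoxia-inducible factors, searched on both strands (CACGT on the other). The form GCGTG was not searched or counted.
Plod1: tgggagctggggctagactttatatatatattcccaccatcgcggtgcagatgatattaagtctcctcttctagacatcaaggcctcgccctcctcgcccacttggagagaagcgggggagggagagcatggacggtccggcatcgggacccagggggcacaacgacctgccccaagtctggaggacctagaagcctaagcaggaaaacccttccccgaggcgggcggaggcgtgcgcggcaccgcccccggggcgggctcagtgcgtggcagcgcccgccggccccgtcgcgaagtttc
Plod3: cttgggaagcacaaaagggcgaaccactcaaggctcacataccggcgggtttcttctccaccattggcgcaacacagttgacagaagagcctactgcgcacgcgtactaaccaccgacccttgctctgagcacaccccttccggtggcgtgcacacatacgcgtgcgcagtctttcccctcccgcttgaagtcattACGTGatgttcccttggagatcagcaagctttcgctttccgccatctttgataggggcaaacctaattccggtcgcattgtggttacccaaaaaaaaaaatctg
Plod3 held 1 match to ACGTG, starting 54 bases before the start, and Plod1 held none in this window. Unmarked GCGTG stands in both windows. Of 32851 promoters in the RefSeq set, 19.6% held at least 1 match. The windows held 25 CpG dinucleotides for Plod1 and 19 for Plod3, against a median of 7 over all promoters.

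The prolyl 4-hydroxylase subunits P4ha1 and P4ha2 were lowest in the vector control. Each pairs with the disulfide isomerase P4hb to form the active enzyme. P4ha1 (chromosome 10, 59323296 to 59373304) is the main form in most tissues. Its RPKM was 237 in parental cells and 101 with the vector, beside 215 after exon 3 editing and 146 after exon 2 editing, and the knockouts lay between the controls. P4ha2 (chromosome 11, 54100095 to 54131665) had RPKM of 55.6, 21.5, 73.4 and 45.0 in the same order. Here the exon 3 knockout was above both controls and the exon 2 knockout between them. Group differences were 0.19 (SE 0.401) for P4ha1 and 0.71 (SE 0.430) for P4ha2, with adjusted p = 0.819 and adjusted p = 0.380 in limma. With the vector control dropped from the fit, P4ha2 was at 0.05 (adjusted p = 0.960 in limma) and P4ha1 at -0.42. After the GC and length correction P4ha1 was at 0.66 and P4ha2 at 0.70. Their coding sequences are 47.0% and 54.7% G and C. The share of P4ha2 in the RPKM of the pair was 19.0% in parental and 17.6% in vector cells, and 25.4% and 23.6% after exon 3 and exon 2 editing. No such share was computed for other gene pairs, so its place against a background is unknown. By level, 21.9% of all tested genes were higher in all 4 knockout and control pairs. The P4ha2 share was looked at after the values were seen and was not tested. It was computed without the GC and length correction, and the part of GC content in it was not tested.

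The promoters of this pair are shown because both genes were lower in the vector control together. They lie at chr10:59323046-59323345 for P4ha1 and chr11:54100674-54100973 for P4ha2, both on the plus strand, and the capitals mark the same motif. The P4ha2 window lies inside the gene as placed above, which begins at 54100095. The start used for P4ha2 is therefore not the first base of that gene.
P4ha1: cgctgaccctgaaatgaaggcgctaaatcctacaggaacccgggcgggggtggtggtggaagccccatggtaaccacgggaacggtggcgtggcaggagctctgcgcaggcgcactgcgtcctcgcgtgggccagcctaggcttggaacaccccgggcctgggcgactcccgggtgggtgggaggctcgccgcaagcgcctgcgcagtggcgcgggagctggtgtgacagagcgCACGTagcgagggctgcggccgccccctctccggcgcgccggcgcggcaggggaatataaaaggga
P4ha2: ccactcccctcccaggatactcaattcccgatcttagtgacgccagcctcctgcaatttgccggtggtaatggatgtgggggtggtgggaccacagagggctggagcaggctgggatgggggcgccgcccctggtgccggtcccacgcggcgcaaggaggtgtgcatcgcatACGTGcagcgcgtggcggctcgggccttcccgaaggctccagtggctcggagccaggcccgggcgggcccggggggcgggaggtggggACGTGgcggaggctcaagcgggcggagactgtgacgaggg
P4ha1 held 1 match, starting 16 bases before the start. P4ha2 held 2, starting 78 bases before the start and 10 bases after it, and 8.21% of all promoters held 2 or more. The windows had 32 and 26 CpG dinucleotides. The fifth promoter, of Loxl4, held no match. A match is a stretch of letters and says nothing of binding in these lines.

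To ask whether loss of S100a4 altered these enzymes, both knockouts were compared with both controls. By level, Loxl2 and Plod2 were lower and Plod1 and Plod3 higher in every knockout and control pair, and the other 6 genes overlapped between groups. limma called none of the 10 at an adjusted p under 0.05, where 0.0184% of tested genes (2 of 10871) were called. voom on the recovered reads also called none. At an unadjusted p under 0.05, limma had 2 of the 10, Plod2 and Loxl2, against 19.1% of tested genes. Of all tested genes, 31.2% were lower in all 4 knockout and control pairs and 21.9% were higher, so 2 of 10 in each direction is near the background. A 2-fold difference here is 1 on the log2(RPKM + 1) scale. No gene of the 10 was 2-fold lower in all 4 pairs, which 1.73% of tested genes were, and none was 2-fold higher, which 0.267% were. Plod2 came nearest, with pair differences from -1.63 to -0.83. The median difference of the 10 genes was 0.38, with 3 lower and 7 higher, beside -0.08 for all tested genes. An exact permutation test of these 4 libraries, two-sided, cannot go below 0.333.

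**Figure D3:**
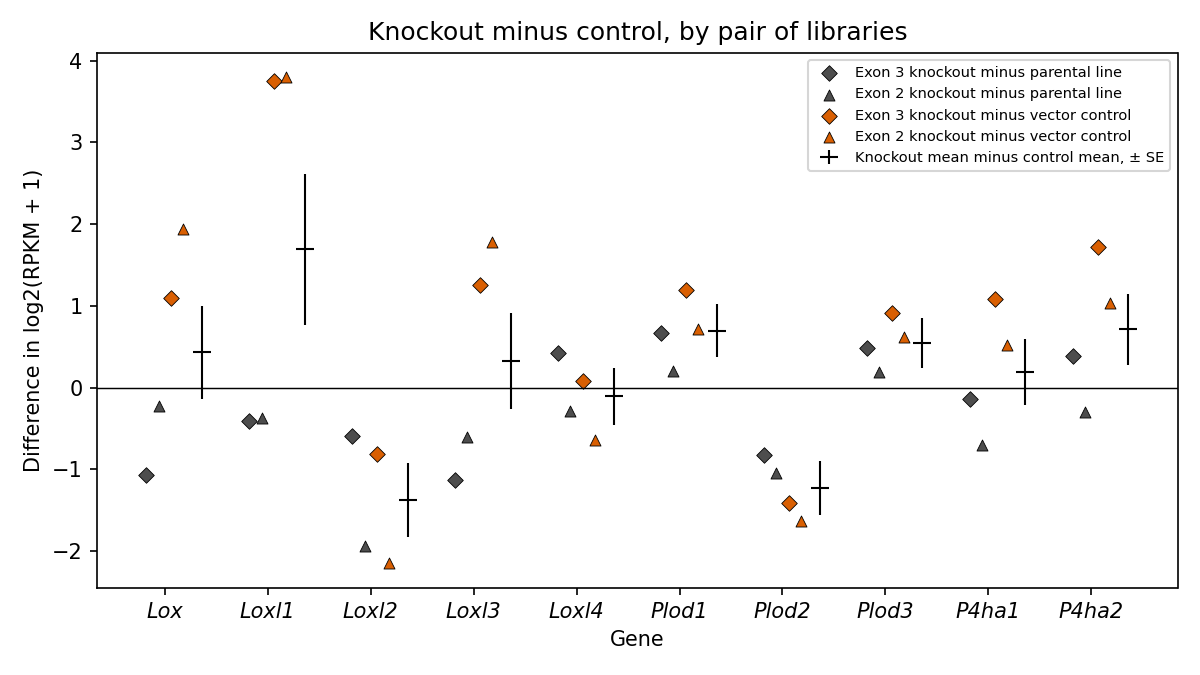
Difference in log2(RPKM + 1) of each knockout from each control (symbols, coloured by the control) and of the group means with its moderated SE (bars, n = 2 per group). Differences from the vector control (orange) lie above 0 and those from the parental line (grey) below 0 for Lox, Loxl1 and Loxl3, while all 4 lie below 0 for Loxl2 and Plod2 and above 0 for Plod1 and Plod3.

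The choice of control set the direction for most of the other genes. Against the parental line, both knockouts were lower for Lox, Loxl1, Loxl3 and P4ha1. Against the vector control, both were higher for these 4 genes and P4ha2, and for Plod1 and Plod3, which were also higher than the parental line. In exon 3 and exon 2 knockouts, respectively, Loxl1 was at -0.41 and -0.37 against the parental line, and at 3.76 and 3.80 against the vector control. When the parental line was left out, limma called 6 of the 10 genes, where 7.25% of tested genes were called. These were Loxl1 (3.78, SE 0.364), Loxl3 (1.52, SE 0.343), Lox (1.52, SE 0.384) and P4ha2 (1.38, SE 0.379) as higher, and Plod2 (-1.52, SE 0.419) and Loxl2 (-1.48, SE 0.484) as lower, with adjusted p from 6.38e-22 to 0.0371. When the vector control was left out, it called none, where 4.15% were called, and the smallest adjusted p among the 10 was 0.110, for Loxl2. In these fits the lone control is assumed to vary as the knockouts do. Plod2 was at -0.93 and Loxl2 at -1.26 without the vector control, and both kept their sign in every fit run.

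The controls were then set against each other, since neither is labelled as edited in S100a4. Lox, Loxl1, Loxl3, P4ha1 and P4ha2 were at least 2-fold lower in the vector control than in the parental line, 5 of the 10, where 5.19% of tested genes were that much lower. Log2 differences were -4.17 for Loxl1, -2.39 for Loxl3, -2.17 for Lox, -1.33 for P4ha2 and -1.22 for P4ha1. Plod1 (-0.52) and Plod3 (-0.43) were lower by less, and Plod2 (0.59), Loxl4 (0.35) and Loxl2 (0.21) were higher. In 7 of the 10 genes the vector control was the lowest of all 4 libraries, where 18.1% of tested genes had it lowest. Each line has 1 library, so these values have no replicate check and are given with no test. Marker levels also differed between these lines. The summed epithelial markers came to 130 RPKM in parental and 34.2 in vector cells, and the summed mesenchymal markers to 3319 and 2635. Nearly all of the epithelial sum was Krt8 (69.0 and 27.5) and Krt18 (60.2 and 6.10). Epcam (0.304 and 0.374) and Cdh1 (0.157 and 0.252) were below 1 RPKM and were not lower in vector cells. Of the 7 mesenchymal markers, the 2 furthest apart, named after their values were seen, were Acta2 (smooth muscle actin), at 55.2 and 420, and Col1a1, at 670 and 6.93. The other 5 were between 0.746 and 1.22 times the parental level in vector cells. Their part in the enzyme levels was not tested.

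The knockouts were closer to each other. Loxl2 was the 1 gene of the 10 at least 2-fold apart between them, at -1.34 on the log2 scale for exon 2 minus exon 3 (4.84-fold in RPKM), where 4.99% of tested genes were 2-fold apart in either direction. The cell number in the title (307 or 308) cannot be told apart from the edited exon here. Lox was next at 0.84, followed by Loxl4 at -0.71 and P4ha2 at -0.69. Loxl1 differed by 0.04, the least of the 10.

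Other proteins of collagen maturation were described from a list of 30 genes, of which 26 passed the expression filter. They divided evenly between groups, 13 lower and 13 higher in the knockouts, with a median difference of -0.01 beside -0.08 for all tested genes. That median was -0.23 with the vector control dropped and 0.28 with the parental line dropped. limma called none at an adjusted p under 0.05, and 4 lower and 2 higher genes had an unadjusted p under 0.05, 23.1% of the list beside 19.1% of all tested genes. Sec23a, a coat protein of the vesicles that carry procollagen, was the 1 gene at least 2-fold apart in all 4 pairs. It was lower in the knockouts by that much, as 1.73% of all tested genes were. Its RPKM was 52.9 (parental), 50.9 (vector), 21.6 (exon 3) and 22.0 (exon 2). Its log2 difference was -1.21 (SE 0.295) with an adjusted p = 0.105 in limma, and -0.62 after the GC and length correction. Fkbp14, a prolyl isomerase that assists collagen folding, was at -1.11 (SE 0.337). Tgm2, a transglutaminase that cross-links matrix proteins through glutamine, was at 1.06 (SE 0.349), and at 0.62 with the vector control dropped. Chosen after its values were seen, P4hb, the partner of both P4ha subunits, had RPKM of 1082, 964, 1576 and 735 in the same order as above, and did not follow the low vector control level of P4ha1 and P4ha2.

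Between the controls this list and the substrates of the enzymes also differed. Of the 26 genes, 22 were lower in the vector control than in the parental line and 5 at least 2-fold lower, where 36.6% and 5.19% of all tested genes were. Chosen after their values were seen, Adamts2, which removes the amino propeptide of procollagen, had RPKM of 14.4 in parental and 0.357 in vector cells, with 6.47 and 5.59 after exon 3 and exon 2 editing. P4ha3, the other catalytic subunit of prolyl 4-hydroxylase, had 18.8, 1.09, 2.80 and 2.28 in that order, low in all 3 derived lines and not only in the vector control. It was not counted in the family shares above. Of 10 substrate and matrix genes, 9 were expressed, since Eln (elastin) was listed at 0 in all 4 libraries, and 8 of the 9 were at least 2-fold lower in the vector control. Also chosen after their values were seen, Col1a1 had RPKM of 670, 6.93, 54.3 and 24.2, and Fn1 (fibronectin) 606, 164, 414 and 340. For Col1a1 both knockouts were nearer to the vector control, while for Loxl1 both were near the parental line.

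In the comparison of both groups, substrates had a median difference of -0.53, with 7 lower and 2 higher, and none called by limma. At an unadjusted p under 0.05 limma had 3, 33.3% of the tested substrates beside 19.1% of all tested genes. The median was -1.74 with the parental line as sole control and 0.69 with the vector control as sole control. Col3a1, a fibrillar collagen, was the 1 substrate 2-fold lower in all 4 pairs, as 1.73% of all tested genes were. Its RPKM was 133 (parental), 57.9 (vector), 15.2 (exon 3) and 23.9 (exon 2) (-2.14, SE 0.407, adjusted p = 0.0957 in limma). The study named Col3a1, too, on the basis of these libraries, so its direction is not independent evidence. Fbln5, an elastic fibre protein that binds lysyl oxidase-like enzymes, was at -1.21 (SE 0.474) and Col5a2, a collagen that sets fibril diameter, at -1.13 (SE 0.444). Both depended on the control. With the vector control dropped, Fbln5 was at -2.06 and Col5a2 at -1.80, and with the parental line dropped they were at -0.35 and -0.47.

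**Figure D4:**
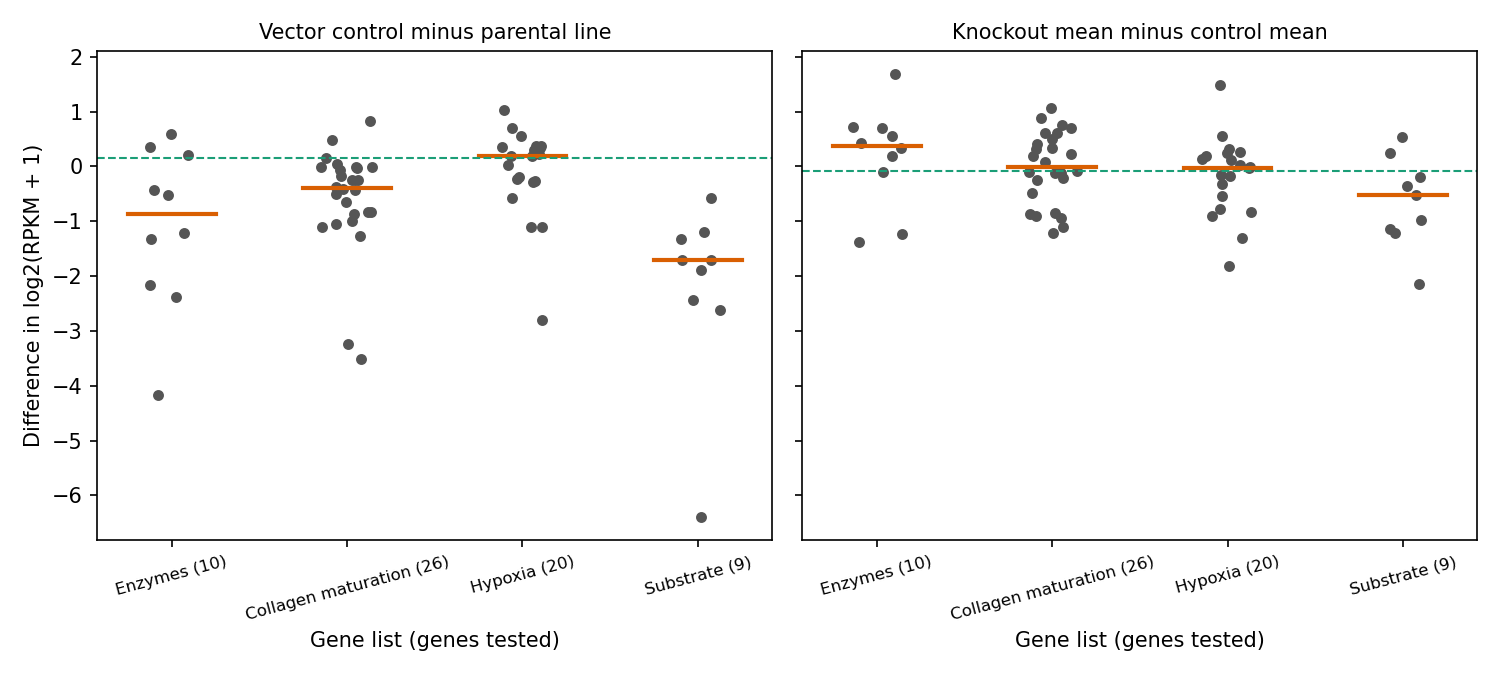
Differences in log2(RPKM + 1) for the 10 enzymes and the 3 other lists, vector control minus parental line (left, 1 library each) and knockout mean minus control mean (right, n = 2 per group), with 1 point per gene, the list median in orange and the median of all tested genes as a dashed line. Enzymes (median -0.87) and substrates (median -1.71) lie below the dashed line on the left, and on the right the enzyme median is 0.38 and the substrate median -0.53.

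Several of the enzymes are known targets of hypoxia-inducible factors, so 20 genes of that pathway were described as well. Their median difference between groups was -0.02, with 11 lower and 9 higher. limma called none, and 4 lower and 1 higher had an unadjusted p under 0.05, 25% of the list beside 19.1% of all tested genes. Hif1a, the oxygen-regulated subunit, had RPKM of 76.4 in parental and 125 in vector cells, with 24.5 and 30.02 after exon 3 and exon 2 editing (-1.81, SE 0.332, adjusted p = 0.0909 in limma). After the GC and length correction it was at -1.02. The study named Hif1a, like Loxl2, from these libraries. Epas1, its relative, had 2.79, 2.16, 0.389 and 0.424 in the same order. Both were at least 2-fold lower in all 4 pairs, as 1.73% of all tested genes were. Ndrg1, a commonly used target, was at least 2-fold higher in all 4 pairs, as 0.267% of all tested genes were. Its RPKM was 21.3, 27.8, 63.2 and 76.6 in the same order. Between the controls, 3 of the 20 genes were lower and 1 higher in vector cells by 2-fold or more, where 5.19% and 3.34% of all tested genes were. The lower genes, named after their values were seen, were Adm (212 RPKM in parental and 29.7 in vector cells), Egln3 (115 and 52.8) and Car9 (4.40 and 1.53), and the higher one was Ldha (256 and 521).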

How the data were processed

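RNA-seq was done on 4 cell lines. The authors deposited 1 table of RPKM on a linear scale, and 0 columns of per-sample values were left unmatched to a label. The submitters' processing notes name CASAVA 1.8, GSNAP and GRCm38, and the study's methods give GSNAP as the aligner of these reads for counting indels. The gene model and counting rule are not given in the sources used here. Whole reads were recovered for 100% of the 15405 genes above 0 (tolerance 0.001 reads). The gene length behind RPKM equalled a coding length in GENCODE M21 for 56.6% of 10780 genes, and 20987 of 21090 symbols matched it. Genes with mean RPKM of at least 1 were compared as log2(RPKM + 1), which understates differences of low genes. The fit was limma 3.58.1 (R 4.3.3) with an intensity trend and Benjamini-Hochberg adjustment (threshold 0.05). It was run on simulated data with independent noise of equal size for all genes. That checks the code and cannot show the error rate for lines that differ as these do. Tables used Python 3.11.15, pandas 2.3.3 and scipy 1.17.1. Named were the 10 members, S100a4 and, of each list, genes 2-fold apart in all 4 pairs and the 3 largest differences, and others are marked. Members and lists were chosen with earlier results of these data known. Alternatives were other pseudocounts, scalings, filters, priors, thresholds, a GC and length correction (loess), voom and leaving out each library, where a lone line is assumed to vary as the other group does. Wilson intervals cover counting error only.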

Additional observations from a re-analysis of the deposited data

Results flagged for a closer look

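Loxl4 drew attention because its knockouts lay outside the range of the controls on opposite sides, above both in the exon 3 and below both in the exon 2 knockout, a difference of -0.71 on the log2 scale for exon 2 minus exon 3. Its RPKM was 13.9 in parental and 17.99 in vector cells, with 19.0 and 11.2 after exon 3 and exon 2 editing. The difference was not tested, as each knockout has 1 library. Of all tested genes, 7.88% lay on opposite sides in this way, against 1 of the 10 enzymes. The 95% Wilson intervals of the exon 3 knockout (17.9 to 20.2) and the vector control (16.9 to 19.1) overlap, so the upper side is not resolved at this depth.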

How the results depend on the processing

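Labels give no replicate numbers, so no paired analysis was possible because nothing links a knockout to a control. No alternative that kept all 4 libraries called any of the 10 enzymes except the robust prior, which called 1 (Plod2, adjusted p = 0.0425 in limma). Leaving out 1 library gave between 0 and 6 called enzymes, with the median difference of the 10 between -0.40 and 0.88, and between 0 and 5 enzymes 2-fold apart in all remaining pairs. At 1.5-fold, 2 enzymes (Loxl2 and Plod2) were apart in all 4 pairs and 4 differed between knockouts. The share of all tested genes at 1.5-fold is not given here, so these counts cannot be set against a background. The robust prior called 1 gene of the maturation list, 2 of the hypoxia list and 1 substrate. Keeping genes with mean RPKM from 5 up, which drops Loxl2, called 1 hypoxia gene and 1 substrate. Leaving out 1 library called between 0 and 6 maturation genes, 0 and 5 hypoxia genes and 0 and 6 substrates, with medians between -0.231 and 0.277 for the maturation list, between -0.171 and -0.0774 for the hypoxia list and between -1.74 and 0.69 for the substrates. Median ratio scaling put the hypoxia median at 0.0701. Among single enzymes, Lox ranged from -0.65 to 1.52, Loxl1 from -0.39 to 3.78, Loxl3 from -0.86 to 1.52, Loxl4 from -0.46 to 0.25 and P4ha1 from -0.42 to 0.80 when 1 library was left out, and Loxl4 was at 0.0484 under quantile normalization. The other 5 kept their sign in every fit run. The median of all tested genes was -0.08, beside 0.04 under quantile normalization and 0.06 after correction for GC and length. Over all tested genes limma called 2, against 0 with median ratio scaling, no filter, the GC and length correction or voom, 1 with a pseudocount of 0.1 or quantile normalization, 32 at mean RPKM of 5 or more, 285 with the robust prior, and between 3 and 788 with 1 library left out. Each line has 1 library, so spread between libraries of a line is unknown, and the lowest read count behind a value of the 10 was 35 (Loxl2, exon 2 knockout).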
